A study of Mus musculus with 4 samples.

Results

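Collagens and laminins are the structural proteins of the extracellular matrix, and integrins are the receptors that tie cells to it. The genes were taken by symbol: all rows of the count tables named as a collagen chain (Col), a laminin chain (Lam) or an integrin subunit (Itga or Itgb), which gave 86 of 31017 genes. They comprise 44 collagens, 11 laminins and 31 genes with an integrin name. Of the last, 4 carry the name without being integrin chains: Itgb1bp1 and Itgb1bp2 encode proteins that bind an integrin tail, Itgb3bp encodes a centromere protein, and Itgbl1 a soluble relative. The remaining 27 are integrin chains.

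RNA sequencing was done on 4 bulk libraries of beta cells, the insulin-producing cells of the pancreatic islet, from wild type C57BL/6J male mice aged 10 weeks. Islets were picked by hand to leave out exocrine tissue, cultured overnight, dissociated with trypsin and sorted by flow cytometry on CD63, a membrane protein of late endosomes and secretory vesicles. There were 2 CD63 high and 2 CD63 low libraries, all of the same strain, sex and age. The labels name CD63 as the sorting marker and describe no further gate, and nothing says that replicates came from separate animals, so the tests weigh differences only against the spread among these 4 libraries, which may be technical.

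Collagen chains wind into triple helices of 3 chains, and laminins assemble from an alpha, a beta and a gamma chain. Collagen IV and laminins build the basement membrane, the sheet that epithelia and vessels rest on. In mouse islets this sheet is known to be laid down mainly by the capillary endothelium, and beta cells attach to it through integrins, each a pair of an alpha and a beta chain. Integrins that share the beta chain encoded by Itgb2 are found on leukocytes.

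Total counts were 29249270 to 35003307 per library, so that 3 counts per library, the floor used for a gene without counts, stood for 0.0770 to 0.108 CPM (counts scaled to the library total, corrected here by TMM factors). The transcript of the sorting marker, Cd63, was at 1973 and 2076 CPM where CD63 was high and at 1186 and 1120 CPM where it was low (log2 fold change 0.81, edgeR adjusted p 0.0484), a call kept in 8 of 14 alternatives. All 10 beta cell markers had counts in every library. Together they reached 535325 and 619928 CPM with CD63 high and 675506 and 483047 CPM with CD63 low, so the groups overlapped. Of the 10, 3 had log2 fold changes above 0 and 7 below. By edgeR 3 (Slc30a8, Mafa and Slc2a2) fell in CD63 high cells, where 0.287% of all tested genes did. Marker sums of other islet cells were higher in both CD63 high libraries. Summed glucagon cell markers were at 5401 and 6093 CPM against 460 and 507, delta cell markers at 452 and 889 against 73.1 and 43.8, and gamma cell markers at 2333 and 4111 against 559 and 279. Of 7 tested glucagon cell markers, 6 had log2 fold changes above 0. The other was at -0.87, lower at an unadjusted edgeR p under 0.05. Called higher were 2 of 8 glucagon, 3 of 3 delta and 3 of 3 gamma cell markers. So were 4 of 12 acinar cell markers (1002 and 1542 CPM against 27.5 and 347, Amy2a5 at 0 throughout). The part of these cells in the values below was not tested. In bulk libraries, fewer cells of a type and less RNA per cell cannot be told apart.

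As a family the genes were sparse in these beta cells. Their share of all counts was 0.0347% and 0.0266% with CD63 high (replicate 1, then replicate 2, here and throughout) and 0.0242% and 0.0372% with CD63 low, so the groups overlapped. Of the 86 genes, 77 had at least 1 count in some library and 9 had none: Col2a1, Col4a6, Col9a1, Col17a1, Col23a1, Col24a1, Lama2, Lamc3 and Itga8. Enough counts for a test were present in 40 genes (19 collagens, 3 laminins, 16 integrin chains and 2 of the other name matches). The filter asked for 2 libraries above 0.316 CPM, before TMM scaling. In 21 of the 40 genes both libraries of each group passed this level, and in 7 genes 1 library of each group did. In 8 (Col8a1, Col18a1, Col25a1, Itga5, Itga9, Itgam, Itgax and Itgb2) both CD63 high but not both CD63 low libraries passed it, and in 4 (Col4a3, Col4a5, Col9a2 and Itgad) the reverse held.

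In the comparison of CD63 high with CD63 low cells, 2 of the 40 genes rose in CD63 high cells at an adjusted p under 0.05 by edgeR's quasi-likelihood test. They were Itgb2, the beta chain of leukocyte integrins, and Itga5, the alpha chain of the main fibronectin receptor. Both entered the test through the CD63 high libraries, where they are high, so their number is a description. Over all 13241 tested genes, 2.79% were called in either direction and 2.50% rose. None of the 40 fell, where 0.287% of all tested genes did; DESeq2 and limma-voom called 0 lower as well, 3 had an unadjusted edgeR p under 0.05, and some other settings, given below, called Col4a1 or Col6a3 lower. At that unadjusted level 6 of the 40 were higher, where 8.95% of all tested genes were higher and 5.96% lower. The groups did not overlap in 16 of the 40 genes, 12 above and 4 below, where 46.0% of all tested genes did not. The 40 include 8 genes that entered the test through the CD63 high libraries and 4 through CD63 low. The split of 12 above and 4 below and the median fold change are therefore descriptions. The median log2 fold change was 0.25 over the 40 genes and -0.01 over all tested genes. The median standard error was 0.84 against 0.30, so that most members were measured less precisely than a typical gene.

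Among the collagens, a basement membrane chain had the highest level. Col4a1, this chain (chromosome 8, 11198423 to 11312826, mm10), had 237 and 398 counts in the CD63 high libraries against 625 and 931 in CD63 low. That is 7.56 and 14.4 CPM against 20.6 and 23.9 CPM. Both CD63 high libraries lay below both CD63 low libraries, as they did for 22.2% of all tested genes. The log2 fold change was -1.02 (SE 0.31), and the edgeR adjusted p of 0.129 missed the threshold. Without CD63 high replicate 2 it was -1.56 with an adjusted p of 0.00856, and without CD63 low replicate 1 it was -1.13 with 0.0347. Without CD63 high replicate 1 it was -0.63 with 0.521, without CD63 low replicate 2 it was -0.89 with 0.212, and with no filter on low counts the adjusted p was 0.00768.

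Endothelial markers beside these values summed to 9.00 and 6.10 CPM with CD63 high and 7.58 and 6.85 CPM with CD63 low. Of the 12 markers, 9 had counts, 4 were tested and 0 were called by edgeR. Of the 4 tested, 2 had log2 fold changes above 0 and 2 below. Above were Pecam1 (37 and 18 against 8 and 1 counts) and Plvap (55 and 10 against 0 and 12). Below were Esam (115 and 109 against 145 and 213 counts) and Egfl7 (32 and 16 against 75 and 30). Pecam1 alone had an unadjusted edgeR p under 0.05. Cdh5, Tie1 and Cldn5 were at 0 counts in all 4 libraries. The part of endothelial cells in the collagen IV values was not tested.

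The usual partner of Col4a1 had few counts. The helix of the common collagen IV holds chains of Col4a1 and Col4a2, and the genes lie head to head. Col4a2 had 6 and 17 counts in the CD63 high libraries against 1 and 0 in CD63 low, 24 in all against 2191 for Col4a1. Per kilobase of exon, the mean level over the 4 libraries was 2.22 CPM for Col4a1 and 0.0317 CPM for Col4a2, a ratio of 70.3. In the file's annotation the exons of the pair share 22 bases at their starts, 0.295% of the exonic length of Col4a1. The stretch is shown because both transcripts begin in it, on opposite strands; capitals mark the shared bases and lower case the 4 bases on each side (RefSeq, GRCm38.p6, chr8:11312801-11312830, 5′ to 3′).
Col4a2, plus strand: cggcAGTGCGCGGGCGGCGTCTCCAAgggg
Col4a1, minus strand: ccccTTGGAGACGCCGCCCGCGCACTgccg
Unstranded counting leaves out reads that touch both genes, and these bases are a small part of Col4a1.

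The other collagen IV chains, which form the network of the kidney filter and some other epithelia, had few counts. Col4a5 had 4 and 0 counts in the CD63 high libraries against 34 and 26 in CD63 low. These groups did not overlap, with a log2 fold change of -3.68 (SE 1.23) and an edgeR adjusted p of 0.170. Col4a4 had 0 and 0 against 5 and 4 counts and was too low to test. Col4a3 had 3 and 14 against 14 and 14 counts (-0.46, SE 1.06), and here the groups overlapped. Thus Col4a1, Col4a4 and Col4a5 were each lower in both CD63 high libraries, while Col4a2 was higher in both. Among all tested genes, 22.2% were lower and 23.7% higher in this way, and Col4a2 and Col4a4 had few counts. Of the 6 collagen IV chains 3 were tested, and none of these passed.

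Collagen VI forms beaded filaments around cells, from chains of Col6a1, Col6a2 and a further chain such as Col6a3. Col6a3 had 190 and 200 counts in the CD63 high libraries against 316 and 592 in CD63 low, or 6.06 and 7.22 against 10.4 and 15.2 CPM. Its log2 fold change was -0.95 (SE 0.30) with an edgeR adjusted p of 0.147. Without CD63 low replicate 1 it passed, at -1.20 with 0.0351, and without CD63 low replicate 2 it was -0.63 with 0.558. Col6a6, an alternative to Col6a3, had 193 and 184 against 333 and 340 counts, a difference of -0.62 (SE 0.30, edgeR adjusted p 0.374). For both genes the CD63 high libraries lay below the CD63 low libraries. Col6a1 and Col6a2 had 4 counts together over all 4 libraries, so that Col6a3 stood 156-fold above their sum per kilobase.

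**Figure D1:**
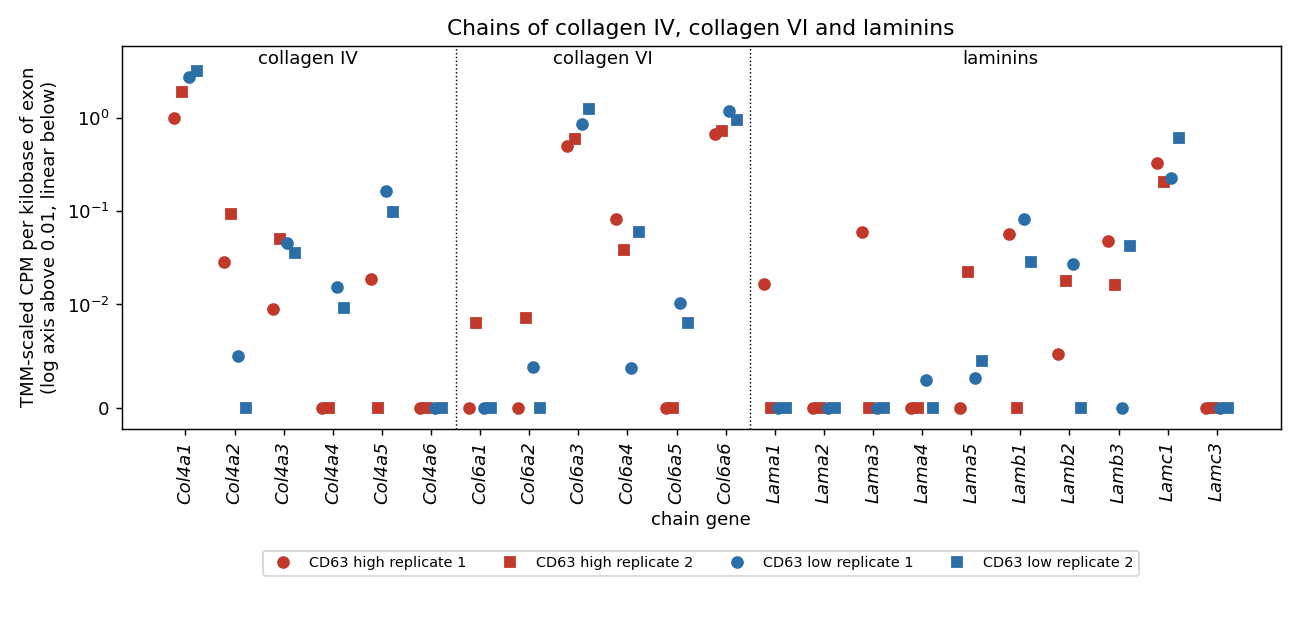
TMM-scaled CPM per kilobase of exon (log axis above 0.01, linear below) for chains of collagen IV, collagen VI and laminins, 1 point per library, red for CD63 high and blue for CD63 low. Col4a1, Col6a3, Col6a6 and Lamc1 stand above the other chains drawn for their protein, and in the first 3 both red points lie below both blue points.

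The fibrillar collagens, which make the fibres of connective tissue, were low and uneven between libraries. Col1a1, a chain of the main fibre of skin and bone, had 0 and 63 counts in the CD63 high libraries against 13 and 1 in CD63 low. Col1a2, its partner chain, had 10 and 41 against 17 and 21 counts. Col3a1, which is not among the tested genes, had 0 and 30 against 10 and 0 counts. In all 3 the highest value was that of CD63 high replicate 2 and the groups overlapped. Markers of fibroblasts and stellate cells summed to 5.01 and 19.8 CPM with CD63 high and 1.88 and 2.13 CPM with CD63 low. Of those 12 markers 10 had counts and 3 were tested, all with log2 fold changes above 0, and 1, Vim, was called higher. Dcn had 3 and 39 counts against none, and Pdgfra and Thy1 were at 0 in all libraries. The part of such cells in the fibrillar values was not tested.

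Other collagens were higher in both CD63 high libraries without passing the test. Col18a1, the basement membrane collagen that is the precursor of endostatin, had 23 and 16 counts in the CD63 high libraries against 0 and 1 in CD63 low (edgeR adjusted p 0.0767). Col8a1, a short-chain collagen of vessel walls, had 15 and 38 against 1 and 3 counts (edgeR adjusted p 0.110). Both lay above the CD63 low libraries, as did 23.7% of all tested genes. Col16a1, a collagen that links to fibres, reached 9.06 and 3.68 CPM against 0.527 and 3.18 CPM, again without overlap. Its log2 fold change of 1.76 (SE 0.70) had an edgeR adjusted p of 0.262. It passed without CD63 high replicate 2 (2.27, adjusted p 0.00531) and without CD63 low replicate 2 (3.60, 0.000581). Leaving out replicate 1 of CD63 high gave 0.96 (0.604) and of CD63 low 1.00 (0.275), and with no filter the adjusted p was 0.00164. In all, 0 of 19 tested collagens were called by edgeR, DESeq2 or limma-voom, with unadjusted edgeR p under 0.05 for 3 higher and 3 lower.

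Among the laminins, Lamc1, the gamma chain of most basement membrane laminins, had 86 and 47 counts in the CD63 high libraries against 58 and 198 in CD63 low. The groups overlapped, and the difference did not pass the test (log2 fold change -0.66, SE 0.55, edgeR adjusted p 0.656).

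The beta and alpha chains that would complete a laminin with Lamc1 were scarce. Lamb1 had 18 and 0 counts in the CD63 high libraries against 25 and 11 in CD63 low (-0.90, SE 1.30, edgeR adjusted p 0.830), and Lamb2 had 1 and 3 against 5 and 0. Lama4 and Lama5, the alpha chains of vessel basement membranes, had 1 and 10 counts over all 4 libraries. Lama3, an alpha chain of epithelial laminins, had 20 counts in CD63 high replicate 1 and 0 in the other 3 libraries. Per kilobase, the mean level over the 4 libraries was 0.346 CPM for Lamc1, 0.0424 CPM for Lamb1 and 0.00740 CPM for Lama5. Neither Lamc1 nor Lamb1 passed with edgeR, DESeq2 or limma-voom, or had an unadjusted edgeR p under 0.05. Duct markers summed to 3228 and 1958 CPM with CD63 high and 1178 and 1145 CPM with CD63 low, and Spp1 alone, 1 of the 9 markers, was called higher. Of 7 tested duct markers, 6 had log2 fold changes above 0 and 1 below. Among these, 4 had an unadjusted edgeR p under 0.05, all higher. Cftr was at 0 in all libraries, and the part of duct cells in the Lama3 values was not tested.

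The integrins held most of the family's transcripts. Itgb1, the beta chain shared by most matrix-binding integrins (chromosome 8, 128685654 to 128733200, mm10), was the most abundant of all 86 genes per kilobase. Its level was 17.2 and 13.4 CPM per kilobase in the CD63 high libraries against 13.2 and 20.8 in CD63 low. In CPM it stood at 70.1 and 54.9 against 54.0 and 84.9, and the difference of -0.15 (log2, SE 0.25) lay within the spread between replicates. Next by level stood Itgb5, a beta chain of vitronectin receptors, with 9.75 and 6.00 against 6.75 and 9.19 CPM per kilobase. These neighbours did not overlap in level, with the lowest Itgb1 value above the highest Itgb5 value.

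The alpha chains with the highest levels were laminin and vitronectin receptors. Itga3, a laminin-binding chain, had 1086 and 599 counts in the CD63 high libraries against 551 and 1175 in CD63 low. Itga6, the other laminin-binding chain detected well, had 877 and 661 against 855 and 1026 counts. Itgav, which binds vitronectin and other ligands with an RGD motif, had 1371 and 867 against 784 and 1425 counts. In all 3 genes the groups overlapped, and their log2 fold changes were 0.22 (SE 0.30), -0.07 (SE 0.22) and 0.27 (SE 0.25). Per kilobase their means were 4.58, 2.95 and 3.20 CPM, and the range of Itgav overlapped both others. The lowest value of Itga3, 3.18, lay just above the highest of Itga6, 3.12. Itgb8, a partner of Itgav, was among the 10 most abundant genes, at 0.933 CPM per kilobase (log2 fold change 0.14, SE 0.31).

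The laminin-binding alpha chains together stood 21.4-fold above the collagen-binding ones, of which Itga2 was the largest with 103 and 34 against 50 and 66 counts. Itgb4, the partner of Itga6 in hemidesmosomes, had 1 and 6 counts in CD63 high and 0 in both CD63 low libraries. The abundant receptor chains include known pairs, Itgb1 with Itga3, Itga6 or Itgav and Itgav with Itgb5 or Itgb8, and none of these 6 chains passed the test or separated the groups.

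Of the other names in the set, Itgb1bp1 stood at 23.0 and 26.1 CPM against 17.8 and 20.0 CPM (log2 fold change 0.38, SE 0.23, edgeR adjusted p 0.496). Itgb3bp stood at 12.5 and 14.0 against 12.4 and 11.5 CPM (0.15, SE 0.25). In both the CD63 high libraries lay just above the CD63 low ones without passing the test.

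**Figure D2:**
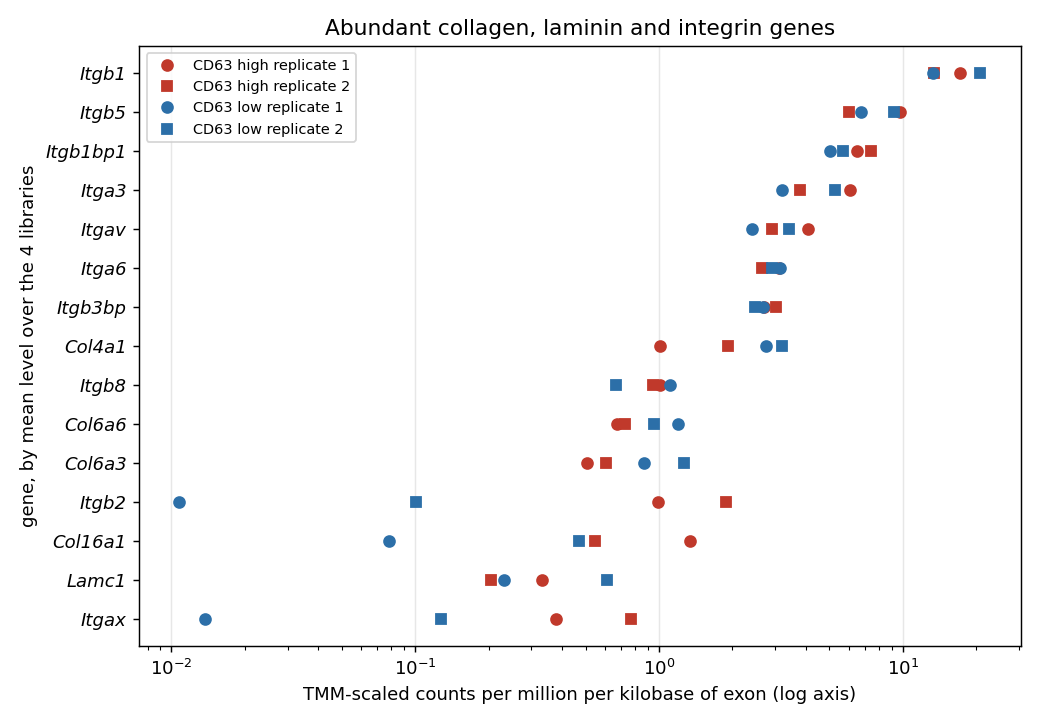
Abundant genes of the set, in order of mean level, with TMM-scaled CPM per kilobase of exon on a log axis and 1 point per library. Red and blue points mix in Itgb1, Itgb5, Itga3, Itgav and Itga6, while in Itgb2 and Itgax both blue points lie to the left of the red ones.

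Of the 2 genes that rose, 1 is a leukocyte integrin chain. Itgb2 (chromosome 10, 77530252 to 77565708, mm10) had 95 and 159 counts in the CD63 high libraries against 1 and 12 in CD63 low. In CPM it stood at 3.03 and 5.74 against 0.0329 and 0.308, and both CD63 high libraries lay above both CD63 low libraries. It was 23.9-fold higher in the CD63 high libraries (log2 fold change 4.58, SE 0.80), with an edgeR adjusted p of 0.0128. The log2 fold change was 4.96 and 4.06 without CD63 high replicates 1 and 2. Without CD63 low replicates 1 and 2 it was 3.81 and 6.90. Itgb2 entered the test through the CD63 high libraries, where it is high, so its call is a description. Scaled by library size alone, it lost the call (adjusted p 0.0876).

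The alpha partners of Itgb2 did not pass. Itgax encodes the alpha chain known as CD11c, of dendritic cells and some macrophages. Itgax had 57 and 102 counts in the CD63 high libraries against 2 and 24 in CD63 low. Its log2 fold change was 2.95 (SE 0.88) and its edgeR adjusted p 0.118, and it was called by DESeq2 (0.0261). It was also called without CD63 high replicate 1 (3.37, adjusted p 0.00328) and without CD63 low replicate 2 (5.31, 0.00326). Leaving out CD63 high replicate 2 or CD63 low replicate 1 gave 2.37 (0.382) and 2.15 (0.127), and with no filter the adjusted p was 0.000962. Itgam, which encodes the alpha chain CD11b, had 12 and 24 against 0 and 7 counts (2.66, SE 1.27, edgeR adjusted p 0.371). Exons of Itgam share 3450 of 5024 bases with Gm49368 on the same strand, so that reads on those bases were left out of its counts. Itgad and Itgal had 26 and 7 against 18 and 21, and 4 and 14 against 0 and 21 counts, with overlap between the groups. The lymphocyte chains Itgae and Itgb7 were too low to test, with 2 and 16 against 1 and 2 counts and with 0 and 17 against 0 and 0.

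Summed macrophage markers were higher in both CD63 high libraries as well. The 12 markers summed to 152 and 550 CPM with CD63 high and 26.0 and 38.9 CPM with CD63 low, and 10 of them were called higher. All 12 had counts in every library, Cd68 for example 685 and 2367 against 64 and 179. The order of the libraries was the same for Itgb2, Itgax, Itgam and the marker sum, with CD63 high replicate 2 the highest and CD63 low replicate 1 the lowest. Since all were higher with CD63 high, this adds only the order within each group. For Itgam in CD63 low that order rests on 0 and 7 counts. Of 8 lymphocyte markers 5 were at 0 in all libraries, including Cd3e and Ms4a1. The part of macrophages in the integrin values was not tested.

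Itga5, the other gene that rose (chromosome 15, 103344286 to 103366763, mm10), pairs with Itgb1 to bind fibronectin. It had 40 and 45 counts in CD63 high and none in the CD63 low libraries, or 1.28 and 1.62 CPM against 0. Set against the floor of 3 counts in each CD63 low library, it was at least 16.5-fold higher. The edgeR adjusted p was 0.0155, and scaled by library size alone it was 0.0625. Itga5 entered the test through the CD63 high libraries, where it is high, so its call is a description. Its level was still low beside its partner, 0.147 against 16.2 CPM per kilobase for Itgb1. The macrophage marker sums given above were higher in the same 2 libraries, and their part in the Itga5 value was not tested.

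**Figure D3:**
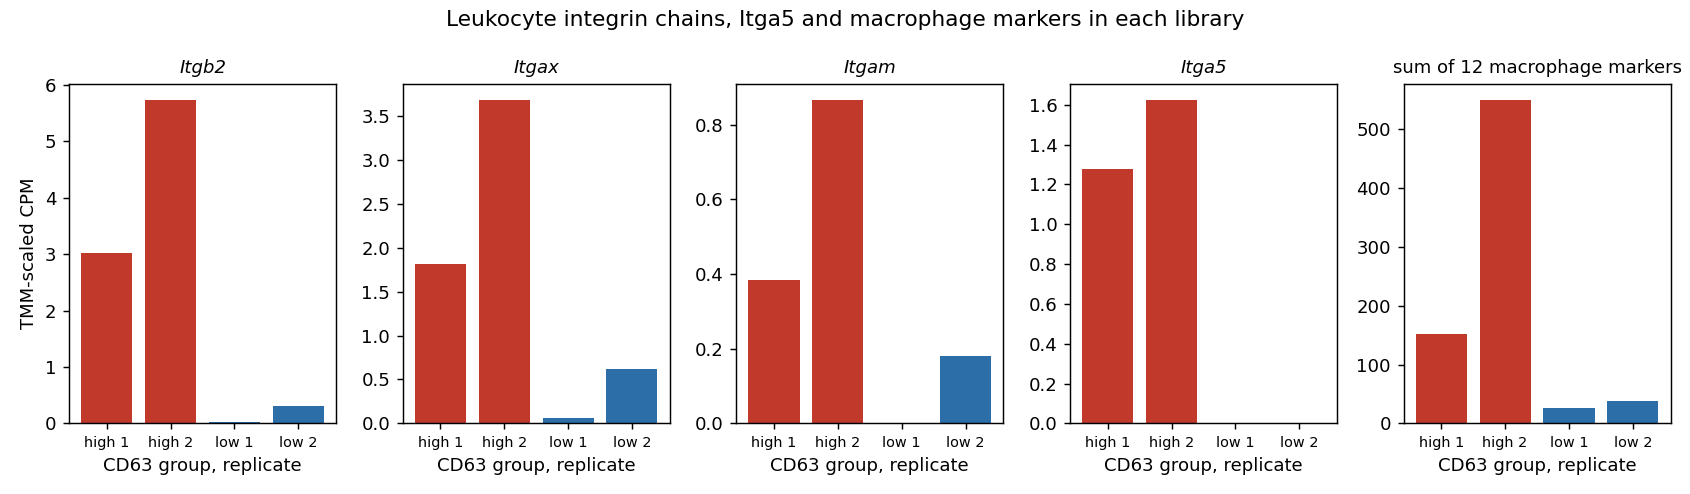
TMM-scaled CPM (linear axes from 0, each panel on its own scale) of Itgb2, Itgax, Itgam and Itga5 and the sum of 12 macrophage markers, 1 bar per library, red for CD63 high and blue for CD63 low. In each panel CD63 high replicate 2 is the tallest bar, and Itga5 has no bar in CD63 low.

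The bases before the starts of Itga5, Itgam and Itgax are shown because these alpha chains had higher values in both CD63 high libraries. A promoter was found for 62 of the 86 genes, with none for Itgb2. Capitals mark GAGGAA on either strand (TTCCTC on the strand shown), a core of the sites bound by ETS factors such as the myeloid factor PU.1. The sequences are the 250 bases before the start on the gene's strand, 5′ to 3′ (RefSeq, GRCm38.p6).
Itga5, chr15:103366792-103367041, minus strand: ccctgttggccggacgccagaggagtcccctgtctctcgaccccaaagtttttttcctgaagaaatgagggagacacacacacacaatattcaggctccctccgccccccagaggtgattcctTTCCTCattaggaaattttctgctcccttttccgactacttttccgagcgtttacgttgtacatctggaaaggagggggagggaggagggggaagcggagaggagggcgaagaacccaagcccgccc
Itgam, chr7:128062390-128062639, plus strand: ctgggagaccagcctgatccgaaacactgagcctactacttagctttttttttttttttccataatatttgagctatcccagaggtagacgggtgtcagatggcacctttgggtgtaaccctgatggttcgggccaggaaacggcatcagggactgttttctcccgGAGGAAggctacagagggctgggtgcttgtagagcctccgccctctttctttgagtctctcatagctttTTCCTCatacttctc
Itgax, chr7:128129300-128129549, plus strand: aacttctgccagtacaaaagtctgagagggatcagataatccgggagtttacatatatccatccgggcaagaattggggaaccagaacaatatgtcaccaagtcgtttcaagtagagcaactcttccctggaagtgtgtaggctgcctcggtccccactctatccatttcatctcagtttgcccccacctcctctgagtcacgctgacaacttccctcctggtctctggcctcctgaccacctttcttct
The motif begins 127 bases before the start of Itga5 and 84 and 15 bases before that of Itgam, and its letters are not in the window of Itgax. Over all 32851 promoters, 23.3% hold it in the same 250 bases, so a match is common and is a description of the letters alone.

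Some members were seen in a single library. CD63 high replicate 2 was the sole library with counts of 8 members, led by Itgb3 (23 counts), Itgb1bp2 (18) and Itgb7 (17). CD63 high replicate 1 alone held 6, led by Lama3 (20 counts) and Col13a1 (8). CD63 low replicates 1 and 2 alone held 2 and 1, none above 3 counts. Itgb3, the platelet and bone-cell beta chain, was thus found in 1 of 4 libraries, while its platelet partner Itga2b had 6 and 9 counts against 3 and 14. Of 6 platelet markers, 1 of which is Itga2b, 5 had counts and 2 were tested. The 6 summed to 27.2 and 33.0 CPM against 1.15 and 1.59, and both tested markers (Pf4 and Ppbp) were called higher. Gp6 was at 0, and the part of platelets in the Itgb3 counts was not tested.

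**Figure D4:**
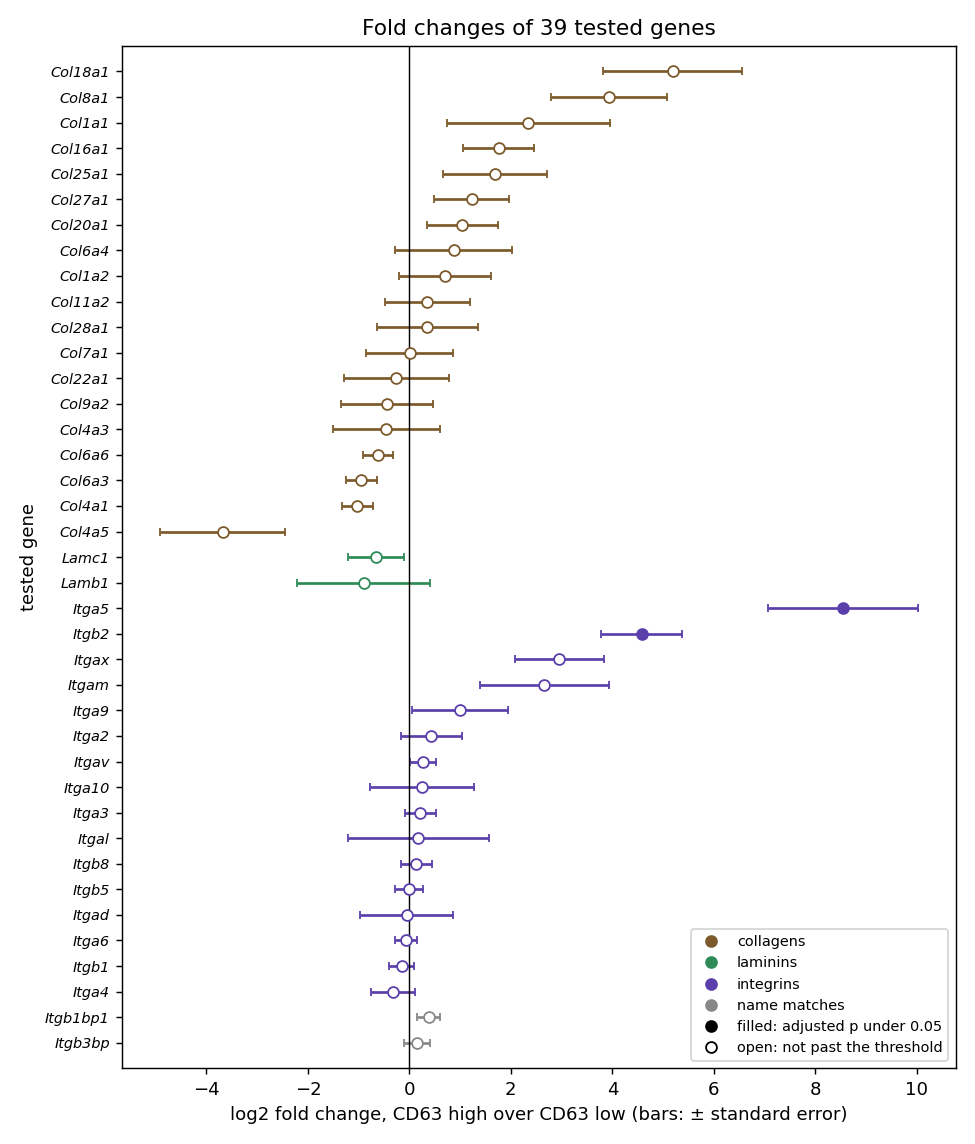
Log2 fold change of CD63 high over CD63 low with its standard error for 39 of the 40 tested genes, grouped as collagens, laminins, integrins and other name matches. The 2 filled points, Itgb2 and Itga5, passed an adjusted p under 0.05; the fitted point of Itga5 is no measured fold, since its CD63 low libraries hold no count.

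Further genes of matrix assembly and adhesion were taken from 5 lists of 87 genes, of which 60 were tested. By edgeR 8 rose and 0 fell in CD63 high cells, where 2.50% and 0.287% of all tested genes did; 2 had an unadjusted p under 0.05 on the lower side, and DESeq2 and limma-voom called 0 lower. Of these 8, all but Cd36 entered the test through the CD63 high libraries, where they are high, so this count too is a description. The median log2 fold change of the 60 genes was 0.25. It is a description as well, since 15 of the 60 entered through the CD63 high libraries and 1 through CD63 low. The macrophage marker sums given above were also higher in both CD63 high libraries, more so in replicate 2. Of the 8 genes, Sparc, Mmp9, Mmp12, Mmp14 and Cd36 were highest in that replicate, and Thbs1, Mmp13 and Fermt1 in CD63 high replicate 1. The part of macrophages in these values was not tested.

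Of 8 tested genes in the list of matrix proteases and their inhibitors, 5 are proteases and 3 are inhibitors of the Timp family. All 8 had log2 fold changes above 0, where 48.6% of all tested genes did, and 4 proteases rose. All but Timp2 entered the test through the CD63 high libraries, so the shared direction is a description. The inhibitors were not called by edgeR: Timp1 at 4.42 (adjusted p 0.0726), Timp2 at 1.36 (0.161) and Timp4 at 0.96 (0.753). DESeq2 called Timp1 (adjusted p 0.00626). Mmp12, the macrophage elastase, had 300 and 528 counts in the CD63 high libraries against 5 and 56 in CD63 low, a 17.2-fold higher level (edgeR adjusted p 0.0105). Mmp13, a collagenase, had 101 and 60 against 8 and 7 counts (12.1-fold, edgeR adjusted p 0.0234). Mmp14, a membrane-bound protease, had 210 and 248 against 2 and 50 counts (11.1-fold, edgeR adjusted p 0.0441). Mmp9, a gelatinase that cuts collagen IV, had 15 and 37 counts against none, at least 10.3-fold higher against the same floor (edgeR adjusted p 0.0472). In each of these 4 genes both CD63 high libraries lay above both CD63 low libraries. Mmp9 lost the call without CD63 high replicate 2 (0.276), CD63 low replicate 1 (0.0702) or CD63 low replicate 2 (0.120), and Mmp13 without CD63 high replicate 1 (0.0890).

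Of 7 tested matrix glycoproteins, 2 rose. Sparc, a collagen-binding protein, had 44 and 114 counts in the CD63 high libraries against 1 and 2 in CD63 low (58.8-fold, edgeR adjusted p 0.00972). Thbs1, thrombospondin, had 166 and 51 against 0 and 10 counts (25.4-fold, edgeR adjusted p 0.0359). Sparc lost the call without CD63 high replicate 2 (0.0935) and Thbs1 without CD63 high replicate 1 (0.0947). Of 12 tested genes of collagen folding and cross-linking none was called by edgeR, DESeq2 or limma-voom, and 1 had an unadjusted p under 0.05.

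Among 22 tested genes for integrin adhesion and signalling proteins, Fermt1 rose. Fermt1 encodes kindlin-1 of epithelia, and had 54 and 29 counts in CD63 high and none in CD63 low libraries, at least 15.7-fold higher against the same floor (edgeR adjusted p 0.0177). Talin 1 (Tln1), which activates integrins, had 956 and 724 against 797 and 1045 counts with overlapping groups (log2 fold change 0.09, SE 0.22). Of the 22, 12 had log2 fold changes above 0 and 10 below, and 4 had an unadjusted edgeR p under 0.05, all higher. Zyx was at 1.42 (SE 0.35, edgeR adjusted p 0.0571), and DESeq2 called Zyx (adjusted p 0.0103), Fermt3 (0.0270) and Tns1 (0.0261) besides Fermt1. Of 11 tested receptors for collagen, laminin and other matrix ligands, Cd36 rose, with 337 and 1293 counts against 71 and 124 (10.3-fold, edgeR adjusted p 0.0106). In Sparc, Thbs1, Fermt1 and Cd36 too, both CD63 high libraries lay above both CD63 low ones. Scaled by library size alone, all 8 genes lost the call. Limma-voom did not call Sparc, Thbs1, Mmp13 or Cd36, DESeq2 did not call Mmp14, and the robust fit kept Sparc, Mmp13 and Fermt1. Without CD63 low replicate 2 the log2 fold changes of Mmp12, Mmp14 and Thbs1 were 6.42, 6.82 and 9.74, and without CD63 high replicate 2 that of Cd36 was 1.96.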

How the data were processed

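Gene expression was measured in 4 libraries of sorted mouse beta cells. Each library has a deposited table of raw counts, made by the authors with featureCounts 1.6.2 by gene name on the Cell Ranger mm10 annotation, per the file headers. These name paired-end counting and no strand or multi-mapping option, so a read matching exons of more than 1 gene was left out. STAR 2.6.0c is named per the submitters' processing notes; no trimming step is named. Every table row names a gene.

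In R 4.3.3, edgeR 4.0.16 was run with filterByExpr (at least 10 counts, and 15 in total), TMM factors, glmQLFit and then glmQLFTest, with Benjamini-Hochberg adjustment over all 13241 tested genes. A standard error is the absolute fold change (log2) divided by the square root of F. The code was tested on simulated data. RLE, library-size and upper-quartile scaling, DESeq2 1.42.0, limma-voom 3.58.1, a robust fit, other filters, a replicate block and leaving out each library were tried as alternatives. Within the groups, the 2 libraries differed beyond sampling noise (chi-square per degree of freedom 39.8 for CD63 high, 78.6 for CD63 low).

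The members and gene lists were chosen with earlier results of these data known. Genes are named where the test called them, where they were among the 10 most abundant members or the 5 smallest p-values of the rest, where they belonged to a list of 13 core members, and, from each related list, for up to 4 called genes. Chain partners and other members with few counts are named beyond this rule, after their values were seen. The values of 1 member are not reported here.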

Additional observations from a re-analysis of the deposited data

How the results depend on the processing

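The samples share replicate numbers 1 and 2 across groups, but the labels tie no numbers to an animal or day, the names of the CD63 low files carry other numbers than their labels (the labels were followed), and the deviations of same-numbered libraries from their group means correlated at -0.178 over 13241 genes. With the replicate number as a block, edgeR called 535 genes higher and 81 lower (331 and 38 without), 4 and 1 collagen, laminin and integrin genes (2 and 0) and 15 related genes higher (8). The member called lower with the block was Col4a1 (-1.09, adjusted p 0.0363). The crossed pairing, added after this correlation was seen, called 607 and 335 genes, 3 and 1 of the family and 13 related genes. With library size as the only scaling the counts were 66 and 1 over all genes, 0 in the family and 0 of the related genes. DESeq2 called 534 and 152 genes and 13 related genes higher. Without a filter the counts were 690 and 250, 4 and 1 in the family, and 18 related genes. Limma-voom and the robust fit called 5 and 3 related genes. Leaving out 1 library gave 378 to 512 genes higher and 56 to 257 lower, 2 to 4 of the family higher and 0 to 2 lower, and 7 to 13 related genes. The log2 fold change of Cd63, 0.81 with an adjusted p of 0.0484, was 0.77 (0.113) by library size, 0.81 (0.0523) in the robust fit, 0.81 (0.218) with the block and 0.78 to 0.85 without 1 library. Itga5 and Itgb2 were called in 13 of 14 alternatives each. These alternatives reuse the same 4 libraries, and in the main fit both genes entered the test through the CD63 high ones. No gene named here reversed a call, and the cause of the shifts between settings was not tested. At 3 counts per library a gene below 0.0770 to 0.108 CPM is not resolved, and 46 members were too low to test.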
